A study of Homo sapiens with 42 samples.

Results

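OCI-AML3, a human acute myeloid leukaemia (AML) cell line known for its mutated NPM1 gene, was compared after treatment with decitabine and with the solvent DMSO. All 6 OCI-AML3 libraries of the deposited table were taken by line and treatment, 3 per arm, out of 30 libraries of 5 lines that could be matched to a labelled sample. The labels give the genotype of these cells as WT with no further detail. Cultures started at 100000 cells per mL and were dosed with 100 nM decitabine on day 0, day 1 and day 2, or with DMSO, and RNA was taken at 72 hours. RNA was depleted of ribosomal RNA and sequenced as stranded libraries. Cells were plated in replicate wells, and the labels do not say whether the replicates came from separate cultures, so that p-values measure the spread between libraries, which may be technical. Testing covered 22168 of the 60240 genes deposited.

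Decitabine is a cytidine analogue that is taken up by nucleoside transporters, phosphorylated by deoxycytidine kinase and built into DNA during replication. There it traps DNA methyltransferases, so that the methylation of CG dinucleotides is lost as cells divide. Promoters of germline genes are commonly methylated in blood cells, and hypomethylating agents are known to raise such genes, to induce myeloid differentiation genes and, in some cells, an interferon response.

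Depth was uneven. Estimated reads in genes were 25.9 M, 2.51 M and 16.8 M in the decitabine libraries and 12.6 M, 2.67 M and 19.3 M in the DMSO libraries. Replicate 2 of both arms was therefore shallow, and 1 read stood for 7.42 normalised counts in decitabine replicate 2 and 6.91 in DMSO replicate 2, against 1.38 or less in the other 4 libraries. A normalised count is the deposited estimated count after the authors' scaling between libraries, and an exact 0 is given as listed at 0. Differences are decitabine minus DMSO on the log2(normalised count + 1) scale, with the standard error (SE) of the fit, and they understate the change of low genes. A gene was called at a Benjamini-Hochberg (BH) adjusted p below 0.05 in limma. Mitochondrially encoded genes held 15.6%, 9.97% and 11.5% of the total after decitabine and 8.63%, 9.22% and 10.98% after DMSO, a difference of 2.75 percentage points that the replicates did not separate (exact permutation test, two-sided, p = 0.2, where 0.1 is the smallest p that 3 against 3 libraries allow).

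Decitabine raised 828 genes (3.74% of those tested) and lowered 363 (1.64%), of which 729 and 297 were protein-coding. The rises were larger: the median difference was 1.26 among genes called higher and -0.62 among genes called lower, against 0.01 over all tested genes. Of the genes called higher, 233 had a mean below 10 normalised counts after DMSO, and 43 were listed at 0 in all 3 DMSO libraries. The 3 decitabine libraries lay above the 3 DMSO libraries for 758 of the 828 genes, and below them for 333 of the 363. Over all tested genes 10.1% lay above and 7.42% below in this way. The shares called over all tested genes, 3.74% higher and 1.64% lower, stand for comparison with the list counts below.

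**Figure D1:**
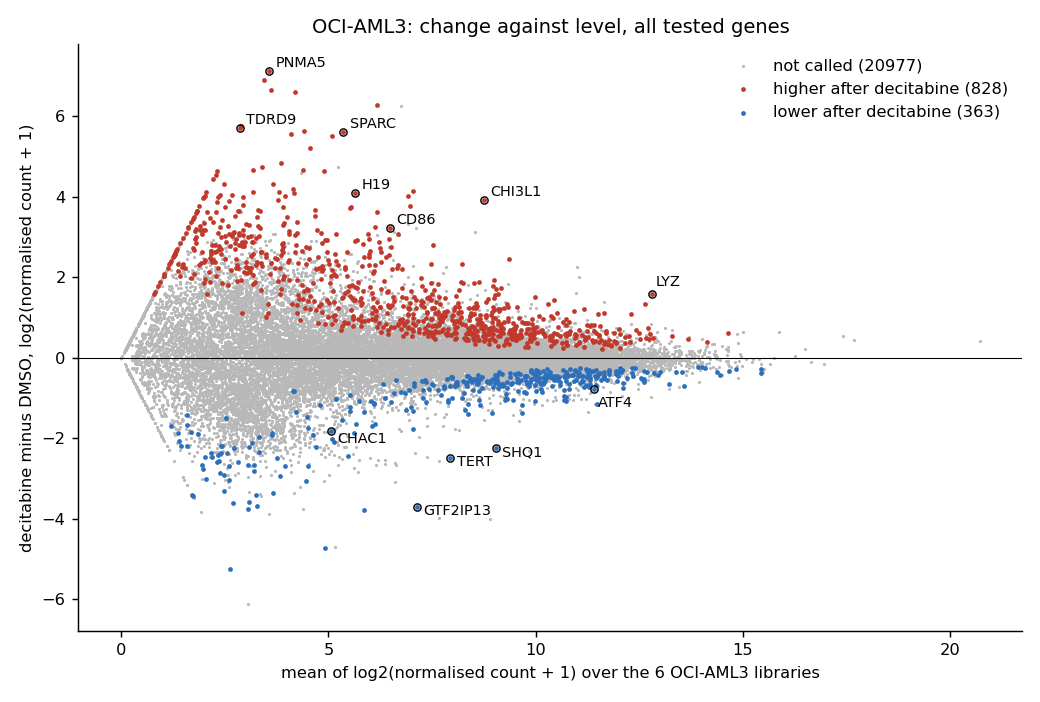
Each point is 1 of the tested genes, placed by its mean log2(normalised count + 1) over the 6 OCI-AML3 libraries and by its difference between decitabine and DMSO. The 828 genes called higher spread further from 0 (median 1.26) than the 363 genes called lower (median -0.62).

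The spread behind these calls was estimated over all 5 lines, and the number of calls depended on that choice. With 1 weight per library 501 genes were higher (2.26%) and 139 lower (0.627%), and 442 and 126 of these were among the calls above. Without both shallow OCI-AML3 libraries 531 were higher (2.43%) and 171 lower (0.782%), of which 414 and 129 were shared. In a fit of OCI-AML3 with KG-1 and MOLM-14, the lines that also had a shallow replicate, 257 were higher (1.23%) and 65 lower (0.31%). The 6 OCI-AML3 libraries on their own gave 50 higher (0.284%) and 4 lower (0.0227%). A call is described below as kept where it was also made with library weights, in the 3-line fit, without the shallow pair and without each single OCI-AML3 library. Of 101 named genes that were called, 43 kept the call, 28 of them higher and 15 lower.

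Genes listed at or near 0 in DMSO made up the top of the list. PNMA5, which belongs to the paraneoplastic Ma antigens, was at 153, 147 and 122 after decitabine and 0 in all 3 libraries after DMSO (limma, BH-adjusted p = 4.5e-11). Its relative PNMA6E was at 115, 105 and 136 after decitabine and 0 in all 3 libraries after DMSO (limma, BH-adjusted p = 9.08e-12). TDRD9, a helicase of the piRNA pathway in male germ cells, was at 54.2, 58.9 and 43.1 after decitabine and 0 in all 3 libraries after DMSO (limma, BH-adjusted p = 1.27e-06). All 3 genes were listed at 0 in every DMSO library and had similar values in every decitabine library, including the shallow one. The melanoma antigen gene MAGEA4 was at 138, 146 and 89.9 after decitabine and 0, 0 and 0.822 after DMSO, a difference of 6.65 (SE 0.56, limma, BH-adjusted p = 2.12e-08). MAGEB2, of the same family, was at 113, 111 and 90.9 after decitabine and 1.38, 6.91 and 2.80 after DMSO and differed by 4.67 (SE 0.83, limma, BH-adjusted p = 0.00084). HORMAD1, which acts on meiotic chromosomes, was at 138, 75.8 and 152 after decitabine and 0.7, 0 and 7.93 after DMSO and differed by 5.57 (SE 0.77, limma, BH-adjusted p = 3.99e-05). For these genes too, the lowest decitabine library lay well above the highest DMSO library. Arms without overlap were a condition for naming the largest rises, so that this separation is no separate evidence. PRAME, an antigen gene found in many leukaemias, was not silent before treatment, at 217, 145 and 157 after decitabine and 11.4, 13.4 and 10.8 after DMSO (3.74, SE 0.42, limma, BH-adjusted p = 2.51e-06). The testis histone gene H1-6 differed by 4.83 (SE 0.70, limma, BH-adjusted p = 7.77e-05). DAZL, an RNA-binding protein gene of germ cells, was also called, at 4.40, 35.3 and 8.01 after decitabine and 0 in all 3 libraries after DMSO (limma, BH-adjusted p = 6.61e-05), but 35.3 in the shallow decitabine library corresponds to few reads.

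Of 44 cancer-testis and germline genes 34 passed the filter on low values. That filter took the libraries of all lines, so that genes could pass it by treated libraries alone or by another line alone. Of the 34 genes 10 were called higher and none lower, and the median difference was 0.87. With the filter applied within OCI-AML3, 11 genes passed, 7 were higher and the median was 4.67. Genes silent in DMSO can pass that filter only by their decitabine libraries. The same list had medians of 0.27 in KG-1, 0.12 in MOLM-13, 0.39 in MOLM-14 and 4.25 in SKM-1. In OCI-AML3 24 of the 34 genes were not called. Listed at 0 in all 6 OCI-AML3 libraries were 8 genes of the list. GAGE2A, GAGE12J and CT45A1, among these, passed the filter by other lines. The remaining calls were MAGEA12 and MAGEB1, of the same family as MAGEA4. Summed over the list, the 3 DMSO libraries held 66.5 to 180.8 normalised counts and the 3 decitabine libraries 863 to 1163.

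To show the range of promoters among genes that rose, the bases before the RefSeq start (GRCh38.p14) of 4 of them are given 5′ to 3′ with every CG in capitals, leaving out bases that lie inside the GENCODE gene model. TDRD9 and PNMA5 were listed at 0 in DMSO, while CD86 and CHI3L1, described below, were already measured there.
TDRD9 (chr14:103928206-103928455, plus strand, 35 CG in 250 bases): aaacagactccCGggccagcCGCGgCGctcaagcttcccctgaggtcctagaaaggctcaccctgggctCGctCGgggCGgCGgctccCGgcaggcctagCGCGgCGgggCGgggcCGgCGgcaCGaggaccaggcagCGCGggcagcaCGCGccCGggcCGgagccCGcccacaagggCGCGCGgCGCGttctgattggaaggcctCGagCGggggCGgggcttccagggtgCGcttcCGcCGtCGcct
PNMA5 (chrX:152994128-152994366, minus strand, 15 CG in 239 bases): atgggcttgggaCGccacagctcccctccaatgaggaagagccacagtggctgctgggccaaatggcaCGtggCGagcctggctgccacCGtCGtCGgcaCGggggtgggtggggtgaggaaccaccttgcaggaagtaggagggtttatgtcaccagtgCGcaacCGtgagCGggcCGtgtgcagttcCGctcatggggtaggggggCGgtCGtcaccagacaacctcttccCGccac
CHI3L1 (chr1:203186750-203186954, minus strand, 6 CG in 205 bases): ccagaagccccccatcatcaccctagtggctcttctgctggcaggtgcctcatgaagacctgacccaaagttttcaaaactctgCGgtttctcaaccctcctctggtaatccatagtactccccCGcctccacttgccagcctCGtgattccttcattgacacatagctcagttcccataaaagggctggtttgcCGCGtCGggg
CD86 (chr3:122055112-122055361, plus strand, 2 CG in 250 bases): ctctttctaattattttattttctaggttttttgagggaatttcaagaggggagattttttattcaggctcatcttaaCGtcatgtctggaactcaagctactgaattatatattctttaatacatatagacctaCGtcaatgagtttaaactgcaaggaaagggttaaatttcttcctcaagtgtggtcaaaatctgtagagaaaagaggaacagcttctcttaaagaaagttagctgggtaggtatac
The CG count ran from 35 in TDRD9 to 2 in CD86, so that genes that rose had promoters both dense and poor in CG. Of the tested genes 12819 had a promoter entry, and the first entry of each was used. The median was 20 CG in the 250 bases before the start over these genes, 18 for the 591 called higher and 20 for the 253 called lower. Among genes with a DMSO mean below 10 the median was 12.5 for the 142 called higher and 11 for the 1722 not called.

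Other large rises lay outside the germline list. SPARC, a matrix-associated glycoprotein gene, was at 222, 444 and 236 after decitabine and 21.8, 0 and 7.88 after DMSO (5.61, SE 0.87, limma, BH-adjusted p = 0.000191). OLFML3, a secreted olfactomedin-like protein gene, was at 159, 335 and 225 after decitabine and 6.56, 0 and 15.8 after DMSO (5.52, SE 0.86, limma, BH-adjusted p = 0.000182). GP1BB, a subunit of the platelet von Willebrand factor receptor, was at 76.4, 66.8 and 29.9 after decitabine and 0 in all 3 libraries after DMSO (limma, BH-adjusted p = 0.00105). The zinc finger gene ZNF772 was at 114, 221 and 115 after decitabine and 5.27, 0 and 8.16 after DMSO (5.22, SE 0.46, limma, BH-adjusted p = 5.21e-08). These 4 genes were named under the condition that the arms do not overlap, and their calls were kept. H19, the imprinted non-coding RNA that is expressed from the maternal allele, was at 327, 123 and 222 after decitabine and 20.1, 3.15 and 19.1 after DMSO (4.11, SE 0.45, limma, BH-adjusted p = 1.7e-06), and MEST, an imprinted hydrolase gene, at 51.2, 84.8 and 107 after decitabine and 35.3, 16.9 and 30.0005 after DMSO (1.53, SE 0.28, limma, BH-adjusted p = 0.00106). Of 22 imprinted genes 17 passed the filter, with 3 higher, H19, MEST and PHLDA2, and 2 lower, KCNQ1OT1 and SNRPN. Both falls were lost with library weights and in the 3-line fit, where PHLDA2 was not called either, and both falls were lost without DMSO replicate 1. CCDC152 was at 199, 124 and 235 after decitabine and 2.43, 0 and 0.82 after DMSO (6.62, SE 0.52, limma, BH-adjusted p = 7.18e-09). Its gene model overlaps that of SELENOP on the other strand, which was at 94.0, 85.1 and 60.6 after decitabine and 8.23, 17.2 and 3.15 after DMSO (3.17, SE 0.81, limma, BH-adjusted p = 0.0201), and whether counting used strand is not given in the sources used here, so that reads of the pair cannot be told apart. SNORD3B-1, a small nucleolar RNA with near-identical copies, was at 519, 1268 and 388 after decitabine and 0.611, 0 and 343 after DMSO. Its call rested on 2 low DMSO libraries and was lost with library weights and in the 3-line fit. GP1BB has an overlapping neighbour on its own strand, SEPTIN5, and members of the PNMA6 and MAGEA families share sequence, so that their counts could be split between copies.

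Markers of monocytes and macrophages rose in part. LYZ, which encodes the lysozyme of monocytes and granulocytes, was at 10896, 13092 and 13473 after decitabine and 4383, 3986 and 3992 after DMSO, a difference of 1.59 (SE 0.09, limma, BH-adjusted p = 5.01e-11). CD86, a co-stimulatory ligand for T cells on antigen-presenting cells, was at 233, 294 and 298 after decitabine and 30.9, 26.6 and 28.0 after DMSO (3.22, SE 0.22, limma, BH-adjusted p = 9.77e-10). Both calls were kept, and the arms stood far apart. The calgranulin genes S100A9 and S100A8 were at 189, 193 and 209.5 after decitabine and 41.5, 34.5 and 52.3 after DMSO and at 108, 127 and 134 after decitabine and 8.38, 48.8 and 33.6 after DMSO, with differences of 2.20 (SE 0.24, limma, BH-adjusted p = 1.88e-06) and 2.29 (SE 0.50, limma, BH-adjusted p = 0.00606). The call of S100A9 was kept, and that of S100A8 was lost in the 3-line fit and without DMSO replicate 1. For TYROBP, an adaptor of myeloid receptors, the rise was 1.04 (SE 0.22, limma, BH-adjusted p = 0.00487), and for CTSS, the cathepsin that trims MHC class II ligands, it was 0.59 (SE 0.10, limma, BH-adjusted p = 0.000484).

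**Figure D2:**
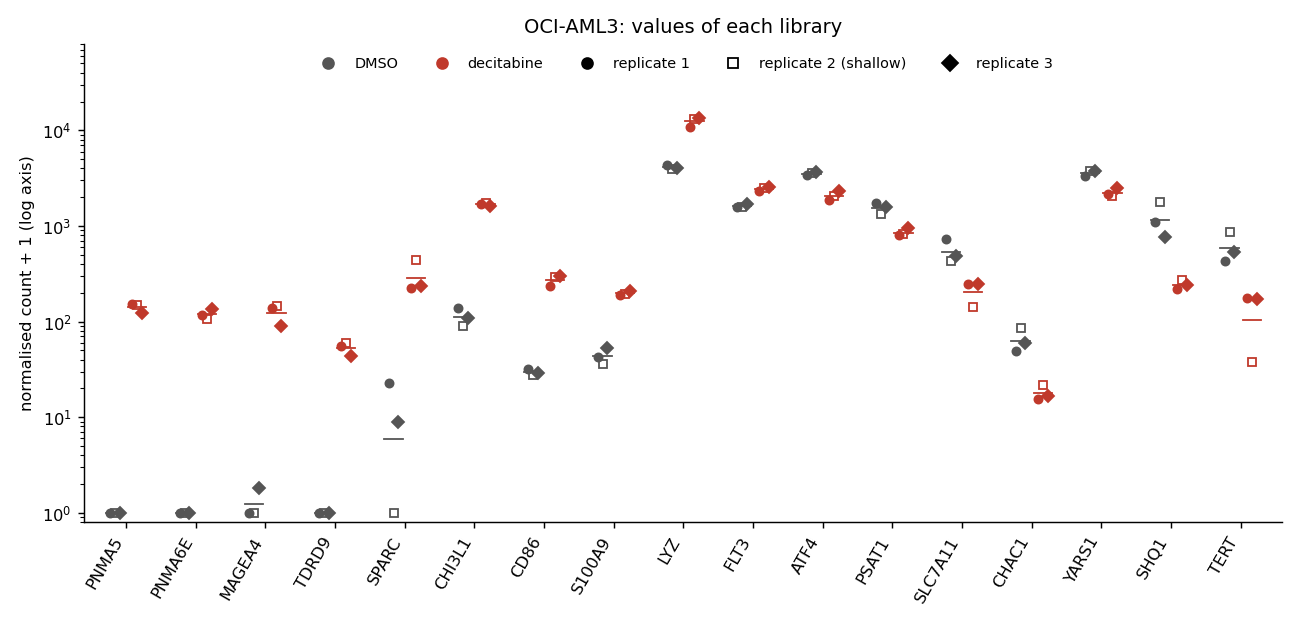
Values of 17 genes in each OCI-AML3 library, as normalised count + 1 on a log axis, with DMSO in grey, decitabine in red, replicate 2 as open squares and the geometric mean as a bar. The arms of every gene shown are separate, from PNMA5, listed at 0 in DMSO, to LYZ, which exceeds the other genes in both arms.

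Of 32 monocyte and macrophage markers 28 passed the filter, 8 were called higher and none lower, with a median difference of 0.60. The count was 9 of 28 without the shallow pair and 5 of 27 in the 3-line fit. The summed level of the list was 22074 to 23692 in the DMSO libraries and 39069 to 43913 in the decitabine libraries. Lineage-defining members did not all move: CD14, the lipopolysaccharide co-receptor, lay below the filter with at most 5.36 normalised counts, and the growth factor receptor gene CSF1R differed by 0.62 (SE 0.48, limma, BH-adjusted p = 0.532) and was not called. The complement genes C1QA and C1QB of mature macrophages were listed at 0 in all 6 libraries. In RNA from whole cultures, a larger share of cells that express a marker and more of its RNA per cell cannot be told apart.

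CHI3L1, a secreted chitinase-like protein gene of macrophages and neutrophils, was chosen after its values were seen, as were MS4A6A, PRAM1, ANXA1, VCAN and ALDH1L2 below. It was at 1704, 1719 and 1615 after decitabine and 138, 89.0 and 107 after DMSO, a difference of 3.92 (SE 0.17, limma, BH-adjusted p = 1.13e-13), and with the 6 OCI-AML3 libraries taken alone it had the lowest p of all genes (limma, BH-adjusted p = 0.00127). In all 46 genes were called both in that fit and in the fit of all lines, and 4 more of them are given here. NFE2, a transcription factor of megakaryocytes and granulocytes, was at 304, 380.0 and 328 after decitabine and 96.8, 95.3 and 122 after DMSO (1.68, SE 0.14, limma, BH-adjusted p = 2.65e-08). MS4A6A, a membrane protein gene of monocytes, was at 479, 484 and 568 after decitabine and 155, 127 and 194 after DMSO (1.70, SE 0.20, limma, BH-adjusted p = 4.11e-06). PRAM1, an adaptor gene of granulocytes, was at 265, 301 and 296 after decitabine and 71.2, 101 and 97.6 after DMSO (1.68, SE 0.15, limma, BH-adjusted p = 5.21e-08), and the calcium-dependent phospholipid-binding protein gene ANXA1 at 806, 925 and 933 after decitabine and 359, 269 and 285 after DMSO (1.55, SE 0.12, limma, BH-adjusted p = 4.29e-09). In each of the 4 genes the arms were separated by more than their own width. VCAN, a proteoglycan gene of monocytes, was at 4901, 3664 and 4181 after decitabine and 1013, 1214 and 932 after DMSO. It was called from the OCI-AML3 libraries alone (limma, BH-adjusted p = 0.0092) but not with the spread of all lines (limma, BH-adjusted p = 0.147).

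Granule genes rose less evenly. PRTN3, the serine protease proteinase 3, was at 2747, 2634 and 1876 after decitabine and 954, 1707 and 1111 after DMSO (0.97, SE 0.23, limma, BH-adjusted p = 0.0103), and the ribonuclease gene RNASE2 at 4606, 2619 and 2732 after decitabine and 1525, 2163 and 1859 after DMSO (0.81, SE 0.18, limma, BH-adjusted p = 0.00556). CTSG, the granule protease cathepsin G, differed by 0.61 (SE 0.15, limma, BH-adjusted p = 0.0177). MMP9, a gelatinase of neutrophils and macrophages, was at 243, 267 and 197 after decitabine and 37.4, 27.6 and 37.4 after DMSO (2.75, SE 0.73, limma, BH-adjusted p = 0.0248). Neither arm overlapped the other in these genes, but none of the 4 calls was kept. Of 22 granulocyte markers 15 passed the filter, 4 were higher and none lower, and none was called in the 3-line fit. MPO, the myeloperoxidase of granulocyte precursors, was at 65.0, 15.2 and 63.2 after decitabine and 37.4, 326 and 13.7 after DMSO. Its difference of -0.48 (SE 0.66, limma, BH-adjusted p = 0.776) was not called, and it turned to 1.45 without the shallow pair (limma, BH-adjusted p = 0.0438). DMSO replicate 2 alone held the high value.

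Among genes of leukaemic blasts, FLT3, a receptor tyrosine kinase of early progenitors, was at 2312, 2483 and 2545 after decitabine and 1592, 1583 and 1689.8 after DMSO (0.59, SE 0.08, limma, BH-adjusted p = 5.38e-05), and the call was kept. ANPEP, the CD13 aminopeptidase, was at 740.0, 1456 and 1080.5 after decitabine and 365, 272 and 312 after DMSO (1.74, SE 0.33, limma, BH-adjusted p = 0.0015), a call lost without the shallow pair. The chain of the GM-CSF receptor encoded by CSF2RA was at 131, 49.0 and 84.3 after decitabine and 22.3, 19.5 and 57.9 after DMSO (1.44, SE 0.32, limma, BH-adjusted p = 0.00741), a call lost in the 3-line fit and without decitabine replicate 1 or DMSO replicate 2, with overlapping arms. The myeloid transcription factor genes SPI1 (-0.01, SE 0.20, limma, BH-adjusted p = 1) and CEBPA (0.01, SE 0.23, limma, BH-adjusted p = 1) and the surface marker CD33 (-0.25, SE 0.10, limma, BH-adjusted p = 0.181) were not called.

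Most tested markers of lymphoid, erythroid, epithelial and fibroblast cells were not called. Of 20 lymphoid markers 19 passed the filter and limma called none (2 higher at an unadjusted p below 0.05), and CD3E, MS4A1, GZMB and CD2 were listed at 0 in all 6 libraries. The lymphoid list summed to 1748 to 1831 normalised counts in the DMSO libraries and 1561 to 1982 in the decitabine libraries. Of 6 tested erythroid markers limma called none (1 lower at an unadjusted p below 0.05), with the globin genes HBB, HBG1 and HBG2 listed at 0. The erythroid list summed to 3539 to 4538 in the DMSO libraries and 2218 to 4021 in the decitabine libraries. Of 7 tested epithelial markers 1 was higher, the keratin gene KRT18, at 41.4, 50.2 and 25.9 after decitabine and 1.34, 13.4 and 4.52 after DMSO (2.77, SE 0.60, limma, BH-adjusted p = 0.0053), a call lost in the 3-line fit. Epithelial markers summed to 126 to 465 normalised counts in the DMSO libraries and 169 to 264 in the decitabine libraries, with EPCAM listed at 0. Of 7 tested fibroblast markers 2 were higher, ACTA2 (1.06, SE 0.18, limma, BH-adjusted p = 0.000559), the smooth muscle actin gene, and PDGFRB (2.67, SE 0.71, limma, BH-adjusted p = 0.0253), a growth factor receptor gene. The call of ACTA2 was kept, and that of PDGFRB was lost with library weights, in the 3-line fit, without the shallow pair and without each of decitabine replicates 1 and 3 and DMSO replicates 2 and 3. COL3A1 was listed at 0, and the list summed to 337 to 419 in the DMSO libraries and 751 to 813 in the decitabine libraries. The part of cells of other types in these results was not tested.

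Genes of amino acid supply fell. The integrated stress response is a programme in which shortage of amino acids or stress of the endoplasmic reticulum leads to translation of the transcription factor ATF4, which then raises genes of amino acid uptake, serine synthesis and tRNA charging. ATF4 itself was at 1879, 2052 and 2301 after decitabine and 3392, 3539 and 3648 after DMSO (-0.77, SE 0.08, limma, BH-adjusted p = 1.41e-06). CHAC1, which degrades glutathione, was at 14.6, 20.9 and 15.6 after decitabine and 48.1, 84.4 and 58.4 after DMSO (-1.82, SE 0.29, limma, BH-adjusted p = 0.0002). The arms of both genes were well apart. Of the amino acid transporters, SLC7A11, the cystine importer, was at 248, 142 and 243 after decitabine and 732, 432 and 488 after DMSO (-1.39, SE 0.21, limma, BH-adjusted p = 0.000156), and SLC7A5, which imports large neutral amino acids, at 964, 1414 and 1068 after decitabine and 2202, 2796 and 2151 after DMSO (-1.06, SE 0.18, limma, BH-adjusted p = 0.000387). Its partner chain SLC3A2 differed by -0.83 (SE 0.17, limma, BH-adjusted p = 0.00291). DDIT4, an inhibitor of mTORC1, was at 94.9, 56.3 and 102 after decitabine and 224, 196 and 199 after DMSO (-1.33, SE 0.17, limma, BH-adjusted p = 1.17e-05), and the hormone gene ADM2 differed by -1.35 (SE 0.27, limma, BH-adjusted p = 0.00257). ASNS, the enzyme that makes asparagine, was at 439, 769.9 and 748 after decitabine and 1250.1, 959.6 and 1215 after DMSO (-0.84, SE 0.22, limma, BH-adjusted p = 0.0234), a call lost in the 3-line fit and without decitabine replicate 1, DMSO replicate 1 or DMSO replicate 3. Of 25 genes of the response 24 passed the filter, 9 were lower and none higher, with a median of -0.51. The count was 9 without the shallow pair and 6 in the 3-line fit. HSPA5, the endoplasmic reticulum chaperone, differed by 0.01 (SE 0.07, limma, BH-adjusted p = 0.96), and DDIT3, the stress-induced transcription factor CHOP, by -0.15 (SE 0.23, limma, BH-adjusted p = 0.803).

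Enzymes of serine synthesis and folate metabolism fell with them. PSAT1, the aminotransferase of serine synthesis, was at 802, 813 and 944 after decitabine and 1735, 1322 and 1572 after DMSO (-0.85, SE 0.11, limma, BH-adjusted p = 1.4e-05). PHGDH, which starts that pathway, was at 416, 353 and 398 after decitabine and 669, 438 and 915 after DMSO (-0.73, SE 0.18, limma, BH-adjusted p = 0.0154), and MTHFD1L, a mitochondrial folate enzyme, at 448, 337 and 509.6 after decitabine and 864, 740.3 and 1059 after DMSO (-1.05, SE 0.15, limma, BH-adjusted p = 7.37e-05). All 3 genes were lower in every decitabine library than in any DMSO library. The calls of PSAT1 and MTHFD1L were kept, and that of PHGDH was lost in the 3-line fit and without decitabine replicate 2 or DMSO replicate 3. Of 14 genes of the list 6 were lower and none higher, with a median of -0.48 (7 lower without the shallow pair, 3 in the 3-line fit). ALDH1L2, another mitochondrial folate enzyme, was at 1396, 1355 and 1445 after decitabine and 2714, 2663 and 2622 after DMSO. It was called from the OCI-AML3 libraries alone (limma, BH-adjusted p = 0.0296) and not with the spread of all lines (limma, BH-adjusted p = 0.536).

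The cytosolic aminoacyl-tRNA synthetases, which load amino acids onto tRNAs, fell in part. Of 20 genes 8 were called lower, none was higher, and the median was -0.31, with 5 lower with library weights, 6 without the shallow pair and 2 in the 3-line fit. In 14 of the 20 genes the 3 decitabine libraries lay below the 3 DMSO libraries, against 7.42% of all tested genes. Their summed level was 78680 to 87187 normalised counts in the DMSO libraries and 64174 to 66088 in the decitabine libraries. YARS1, for tyrosine, was at 2174, 2053 and 2466 after decitabine and 3305, 3744 and 3723 after DMSO (-0.69, SE 0.08, limma, BH-adjusted p = 2.41e-06), and MARS1, for methionine, at 989, 1026 and 1656 after decitabine and 2293, 2438 and 2187 after DMSO (-0.95, SE 0.17, limma, BH-adjusted p = 0.000677). Both calls were kept. AARS1, for alanine, differed by -0.53 (SE 0.12, limma, BH-adjusted p = 0.00727), and IARS1, for isoleucine, by -0.49 (SE 0.11, limma, BH-adjusted p = 0.00541).

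A composite site for ATF4 and CEBP proteins, here searched as TTGCATCA on both strands of the 300 bases around each RefSeq start (250 before, 50 after), was found near some of these genes. It is shown for 4 called genes in which it lies clear of the RefSeq start. Bases inside the GENCODE gene model were not left out here. The window of CHAC1 lies inside that model, which starts at 40952962. Up to 11 bases are given on each side, with the site in capitals.
CHAC1 (chr15:40953251-40953280, plus strand): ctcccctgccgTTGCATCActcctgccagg
AARS1 (chr16:70289675-70289704, minus strand): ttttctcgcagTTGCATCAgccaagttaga
IARS1 (chr9:92293698-92293721, minus strand): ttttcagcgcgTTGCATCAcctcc
MTHFD1L (chr6:150866346-150866375, plus strand, reverse complement of the site): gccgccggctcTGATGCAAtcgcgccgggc
In the first promoter entry of each gene, 69 of the 12819 tested genes held the site (0.538%), as did 8 of the 253 lower genes (3.16%) and 3 of the 591 higher genes (0.508%). Over all entries of a gene it was found in 95 tested genes, 12 of them lower and 3 higher. Of 16 synthetase genes with an entry 6 held it: AARS1, CARS1, IARS1 and MARS1, which were called lower, and NARS1 and TARS1, which were not. A match is a description of these letters in this window. These lists and the site were chosen with the falls of such genes already known.

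**Figure D3:**
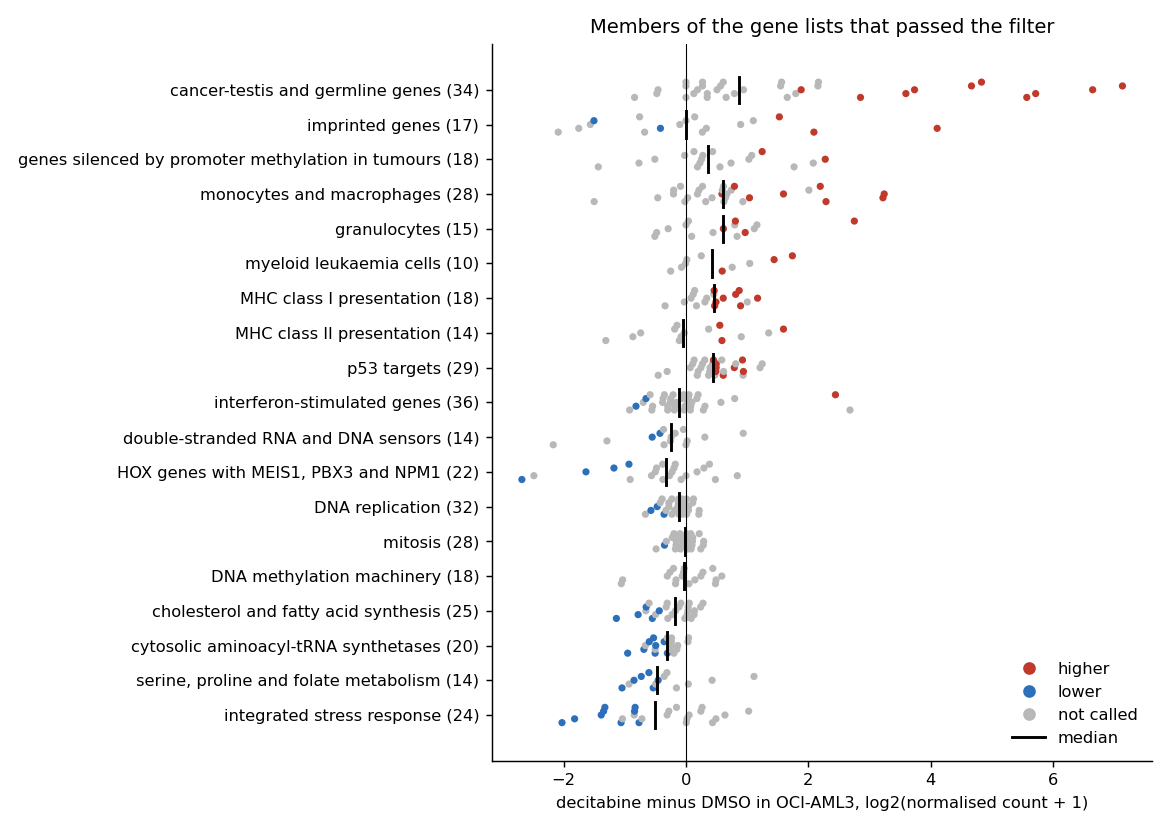
Each point is a member of a gene list that passed the filter (number in brackets), placed by its difference between decitabine and DMSO in OCI-AML3, with genes called higher in red, lower in blue and the list median as a bar. Medians run from 0.87 in the cancer-testis list to -0.51 in the integrated stress response list.

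Lipid synthesis genes fell in part. SCD, the desaturase that makes monounsaturated fatty acids, was at 7062, 7649 and 8141 after decitabine and 12139.7, 11491 and 12195 after DMSO (-0.65, SE 0.06, limma, BH-adjusted p = 3.56e-07), and SREBF1, a transcription factor of fatty acid synthesis, was at 1136, 1631 and 1365 after decitabine and 2632, 2463 and 1986 after DMSO (-0.78, SE 0.15, limma, BH-adjusted p = 0.00195). Both calls were kept. Of 26 genes of cholesterol and fatty acid synthesis 25 passed the filter and 5 were lower, with a median of -0.17. The count was 2 without the shallow pair, with library weights and in the 3-line fit.

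Some targets of p53 rose. ZMAT3, a zinc finger RNA-binding protein gene, was at 663, 808 and 803 after decitabine and 384, 454 and 359.8 after DMSO (0.92, SE 0.14, limma, BH-adjusted p = 0.000107), and its call was kept. MDM2, the ubiquitin ligase that limits p53, was at 10308, 7655 and 8011 after decitabine and 6049.6, 6459 and 5836 after DMSO (0.49, SE 0.10, limma, BH-adjusted p = 0.00251), and BTG1, an antiproliferative gene, at 419.7, 445 and 519.6 after decitabine and 263, 203 and 349.6 after DMSO (0.79, SE 0.15, limma, BH-adjusted p = 0.00195). Decitabine libraries were above DMSO libraries in all 3 genes, but the calls of MDM2 and BTG1 were lost in the 3-line fit. Of 29 targets 8 were called higher and none lower, against 3.74% and 1.64% of all tested genes. Their median was 0.45, against 0.01 over all tested genes, and 27 differences were positive. Without the shallow pair 3 were called, and in the 3-line fit 1 was called. CDKN1A, the p21 cell cycle inhibitor, was at 457, 511 and 545 after decitabine and 392.3, 369 and 390.4 after DMSO and was not called (0.39, SE 0.23, limma, BH-adjusted p = 0.38), although its arms were separate.

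A few cell cycle genes were called lower. Of 32 DNA replication genes 3 were lower and none higher, against 1.64% of all tested genes called lower. Their median was -0.12, and 8 differences were positive. In 6 of the 32 the decitabine libraries lay below all DMSO libraries, against 7.42% of all tested genes. Of 28 mitosis genes 1 was lower, with a median of -0.01. All 4 calls were lost in the 3-line fit. MCM6, of the replicative helicase, was at 3812, 3716 and 3727 after decitabine and 4615, 5251 and 4590.2 after DMSO (-0.36, SE 0.08, limma, BH-adjusted p = 0.00856), and CCNA2, cyclin A2, at 2439, 1992 and 2343 after decitabine and 2929.8, 2744 and 2938 after DMSO (-0.35, SE 0.09, limma, BH-adjusted p = 0.0155). The decitabine libraries of both genes lay below the DMSO libraries, and both calls were lost without the shallow pair and with library weights. UTP20, a factor of small ribosomal subunit assembly, fell by 0.49 on the log2(value + 1) scale (SE 0.08, limma, BH-adjusted p = 0.000193), the 1 gene called in the ribosome biogenesis list of 23. MYC was at 2421, 2299 and 2219 after decitabine and 2553, 2883 and 3079 after DMSO and was not called (-0.29, SE 0.10, limma, BH-adjusted p = 0.108). Among apoptosis regulators BIK (2.95, SE 0.46, limma, BH-adjusted p = 0.000195), BMF (1.51, SE 0.32, limma, BH-adjusted p = 0.00505) and BCL2A1 (2.57, SE 0.52, limma, BH-adjusted p = 0.00307) rose. The first 2 promote cell death and BCL2A1 opposes it. BIK, at 26.5, 7.42 and 27.8 after decitabine and 2.77, 0 and 2.80 after DMSO, kept its call. These values are low, and 7.42 in the shallow decitabine library corresponds to 1 read. The other 2 calls were lost in the 3-line fit. BCL2, the antiapoptotic target of venetoclax, differed by -0.41 (SE 0.14, limma, BH-adjusted p = 0.086), and MCL1 by -0.14 (SE 0.07, limma, BH-adjusted p = 0.258).

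Interferon-stimulated genes did not rise as a group. Of 36 such genes 1 was higher and 2 were lower, with a median of -0.11. IFI27, an interferon-induced mitochondrial protein gene, was at 1701, 1815 and 1168 after decitabine and 248, 377 and 238 after DMSO (2.44, SE 0.62, limma, BH-adjusted p = 0.0196), a call lost without the shallow pair. USP18, which removes ISG15 from proteins, was at 296, 282 and 313 after decitabine and 508, 601 and 471 after DMSO (-0.82, SE 0.21, limma, BH-adjusted p = 0.0218), and CMPK2, a mitochondrial nucleotide kinase, at 860.3, 839 and 1002 after decitabine and 1428, 1409 and 1400.0 after DMSO (-0.65, SE 0.17, limma, BH-adjusted p = 0.0247). Arms were separate in all 3 genes. The calls of USP18 and CMPK2 were also lost without the shallow pair, when none of the 36 genes was called. All 3 calls were lost as well in the 3-line fit and without decitabine replicate 2 alone, and those of IFI27 and USP18 with library weights. IFI27 further lost its call without decitabine replicate 1, DMSO replicate 1 or DMSO replicate 3. In 13 of the 36 genes the decitabine libraries lay below all DMSO libraries and in 3 above, against 7.42% and 10.1% of all tested genes. The summed level of the list was 70969 to 72513 in the DMSO libraries and 59829 to 63992 in the decitabine libraries. IRF7, the regulator of interferon genes, was at 572, 685 and 559.9 after decitabine and 623, 531 and 684 after DMSO (-0.01, SE 0.20, limma, BH-adjusted p = 1). Of 14 tested sensors of nucleic acids 2 were lower, the DNA sensor gene CGAS (-0.55, SE 0.13, limma, BH-adjusted p = 0.00834) and EIF2AK2 (-0.42, SE 0.09, limma, BH-adjusted p = 0.00549), the kinase PKR that is activated by double-stranded RNA. Both calls were lost in the 3-line fit. STING1, the adaptor that acts after CGAS, differed by 0.31 (SE 0.14, limma, BH-adjusted p = 0.247).

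Genes of MHC class I presentation rose in part. B2M, the light chain shared by class I molecules, was at 8468, 6627 and 9173 after decitabine and 5667, 5481 and 6249 after DMSO (0.47, SE 0.11, limma, BH-adjusted p = 0.0127). ERAP2, a peptidase that trims peptides for presentation, was at 1049, 1082 and 1305 after decitabine and 693, 465 and 752 after DMSO (0.87, SE 0.20, limma, BH-adjusted p = 0.00872). The decitabine libraries were above the DMSO libraries in both genes, and the call of ERAP2 was lost without the shallow pair and in the 3-line fit. Of 18 genes of class I presentation 8 were higher, against 3.74% of all tested genes, and none lower, with a median of 0.46. The count fell to 4 without the shallow pair and with library weights and to 1 in the 3-line fit. HLA genes share much sequence, and HLA-B (0.61, SE 0.18, limma, BH-adjusted p = 0.0477) was called only narrowly and lost its call with library weights, in the 3-line fit and without the shallow pair. Of 14 class II genes 3 were higher, CTSS, CD74 (0.55, SE 0.13, limma, BH-adjusted p = 0.0127), the invariant chain, and HLA-DPA1 (1.59, SE 0.36, limma, BH-adjusted p = 0.00849), while the class II activator gene CIITA, at 62.3, 116 and 72.8 after decitabine and 38.5, 19.6 and 39.4 after DMSO, was not called (1.35, SE 0.43, limma, BH-adjusted p = 0.0706). The call of CTSS was kept. That of CD74 was lost with library weights, in the 3-line fit and without decitabine replicate 1 or DMSO replicate 1, and that of HLA-DPA1 in the 3-line fit and without decitabine replicate 2 or DMSO replicate 1, so that 1 class II gene was called in the 3-line fit. Of 23 inflammatory NF-kB targets 3 were higher, against 3.74% of all tested genes: the chemokine genes CCL2 and CCL3 and IER3, an early response gene. All 3 calls were lost in the 3-line fit, and those of CCL2 and CCL3 also with library weights and without the shallow pair. TNF, at 266, 259.7 and 259.8 after decitabine and 269.9, 359 and 311 after DMSO, was not called (-0.25, SE 0.37, limma, BH-adjusted p = 0.793).

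HOX genes are known to keep AML cells with mutated NPM1 in a progenitor state. Of 22 genes of the HOX list 4 were lower, against 1.64% of all tested genes, and none higher, with a median of -0.32. With library weights and in the 3-line fit 1 was lower, and without DMSO replicate 2 the count was 2. HOXA7 was at 20.3, 13.9 and 18.9 after decitabine and 34.0, 40.3 and 49.7 after DMSO (-1.18, SE 0.18, limma, BH-adjusted p = 0.000105), a kept call. HOXA6 was at 11.2, 0 and 17.3 after decitabine and 39.5, 41.9 and 33.1 after DMSO (-2.68, SE 0.61, limma, BH-adjusted p = 0.00776), a call lost with library weights and in the 3-line fit. HOXA9 was at 851, 922 and 940.3 after decitabine and 1043, 1019 and 1213 after DMSO and was not called (-0.27, SE 0.09, limma, BH-adjusted p = 0.0966), and HOXA10 (-0.18, SE 0.10, limma, BH-adjusted p = 0.365), MEIS1 (-0.50, SE 0.27, limma, BH-adjusted p = 0.339) and NPM1 itself (-0.20, SE 0.10, limma, BH-adjusted p = 0.288) were not called either. The decitabine libraries of HOXA9 were nevertheless all below the DMSO libraries, as in 10 of the 22 genes, against 7.42% of all tested genes.

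The largest falls were fewer and less even than the rises. SHQ1, an assembly factor of the box H/ACA ribonucleoproteins that include telomerase, was at 215, 272 and 239 after decitabine and 1105, 1766 and 773 after DMSO (-2.25, SE 0.42, limma, BH-adjusted p = 0.00148), and it was the 1 fall called in the OCI-AML3 libraries alone and in the fit of all lines. TERT, the catalytic subunit of telomerase, was at 174, 36.4 and 170.3 after decitabine and 426, 861 and 533 after DMSO (-2.48, SE 0.55, limma, BH-adjusted p = 0.00634). Its call was lost with library weights, without the shallow pair and without decitabine replicate 2, the library with the lowest value. SLC12A7, a potassium chloride cotransporter gene, was at 24.0, 20.6 and 30.1 after decitabine and 104, 84.5 and 89.5 after DMSO (-1.87, SE 0.33, limma, BH-adjusted p = 0.00072), and APOL4, an apolipoprotein L gene, at 6.14, 0 and 7.79 after decitabine and 16.8, 119 and 30.6 after DMSO (-3.36, SE 0.60, limma, BH-adjusted p = 0.00084). Both calls were kept. GTF2IP13, a pseudogene whose reads may come from GTF2I copies, was at 46.9, 24.2 and 47.5 after decitabine and 436, 1571 and 187 after DMSO (-3.70, SE 0.73, limma, BH-adjusted p = 0.00246), a call lost without the shallow pair, whose DMSO library held the highest value. The falls of ANK2, SLC6A16, AURKAP1, BBOX1 and EGFL8 rested on the shallow libraries of both arms. In decitabine replicate 2 EGFL8 was at 4.60 and the other 4 were listed at 0. DMSO replicate 2 held the highest DMSO value of ANK2, SLC6A16, AURKAP1 and EGFL8, but not of BBOX1. The calls of all these genes were lost without the shallow pair, without decitabine replicate 2 alone and without DMSO replicate 2 alone.

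Some genes of the metabolism of decitabine were called, but none of its targets. Of 21 genes of its uptake, activation and inactivation 20 passed the filter. SLC29A2 and RRM2B were called higher and 2 genes lower, CMPK2 among them, against 3.74% and 1.64% of all tested genes. Without the shallow pair 1 was higher and 0 lower, and in the 3-line fit 0 were called. None of 18 genes of the DNA methylation machinery was called by limma, with a median of -0.03 and 4 higher and 2 lower at an unadjusted p below 0.05. DNMT1, the maintenance methyltransferase, was at 6344, 7986 and 3822 after decitabine and 5129, 6901 and 6211 after DMSO (-0.06, SE 0.27, limma, BH-adjusted p = 0.958), and the arms overlapped. DNMT3A (-0.26, SE 0.23, limma, BH-adjusted p = 0.599), DNMT3B (0.15, SE 0.15, limma, BH-adjusted p = 0.681), UHRF1 (-0.17, SE 0.11, limma, BH-adjusted p = 0.423) and TET2 (0.49, SE 0.29, limma, BH-adjusted p = 0.387) were not called. DCK, the kinase that activates decitabine, differed by 0.12 (SE 0.28, limma, BH-adjusted p = 0.888), SAMHD1, which hydrolyses its triphosphate, by -0.03 (SE 0.15, limma, BH-adjusted p = 0.973), and the transporter gene SLC29A1 by 0.14 (SE 0.10, limma, BH-adjusted p = 0.527). CDA, the deaminase that inactivates it, was at 109, 108 and 106 after decitabine and 39.1, 26.9 and 56.7 after DMSO. The arms of CDA were separate, but it was called neither with the spread of all lines (1.44, SE 0.49, limma, BH-adjusted p = 0.0919) nor from the OCI-AML3 libraries alone (limma, BH-adjusted p = 0.149). SLC29A2, a second nucleoside transporter gene, was at 13.97, 15.98 and 18.6 after decitabine and 7.49, 0 and 6.46 after DMSO (2.10, SE 0.46, limma, BH-adjusted p = 0.00552), a call lost in the 3-line fit. Of genes commonly silenced by promoter methylation in tumours, 18 of 25 passed the filter and 2 were higher, CDKN2B (2.28, SE 0.65, limma, BH-adjusted p = 0.0402), the p15 cell cycle inhibitor, and SOCS1 (1.25, SE 0.34, limma, BH-adjusted p = 0.0271), an inhibitor of cytokine signalling. Both calls were lost without the shallow pair and in the 3-line fit. They were also lost without each of decitabine replicates 1 and 2 and DMSO replicates 1 and 3. That of CDKN2B was lost without DMSO replicate 2 as well, and that of SOCS1 with library weights. Of 23 histone genes 3 were higher, against 3.74% of all tested genes, and 0 lower, with a median log2 difference of -0.17. The count of higher genes was 1 without the shallow pair, with library weights and in the 3-line fit.

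The change in OCI-AML3 was tested against the mean change of KG-1, MOLM-13, MOLM-14 and SKM-1, each with its own DMSO libraries. It was more positive in 313 genes (1.41%) and more negative in 222 (1%). With library weights these counts were 184 and 86, and in the 3-line fit, where OCI-AML3 was set against KG-1 and MOLM-14, they were 44 and 14. Of the 828 genes called higher in OCI-AML3, 262 were also called higher in MOLM-14, 259 in SKM-1, 149 in KG-1 and 86 in MOLM-13, and 17 in all 4 lines. Of the 363 genes called lower, 121 were called lower in MOLM-14, 104 in SKM-1, 59 in MOLM-13 and 20 in KG-1. No other line called 358 of the higher and 181 of the lower genes, but for those without a test of the difference this does not show that the lines differed.

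In the following sentences the value in brackets is the change in OCI-AML3 minus the mean change of the other lines. SPARC, which rose in OCI-AML3, changed by -0.41 in KG-1, 0.11 in MOLM-13, 0.27 in MOLM-14 and -0.52 in SKM-1, a difference of 5.75 (SE 0.98, limma, BH-adjusted p = 0.00138). ZNF772 changed by -0.01 in KG-1, 0.84 in MOLM-13, 0.82 in MOLM-14 and -0.07 in SKM-1 (4.82, SE 0.52, limma, BH-adjusted p = 3.8e-06). PNMA6E, at 0 in OCI-AML3 DMSO libraries, changed by 2.71 in KG-1, 0.53 in MOLM-13, 0 in MOLM-14 and 5.47 in SKM-1 (4.72, SE 0.41, limma, BH-adjusted p = 2.92e-07). In these genes OCI-AML3 was above each of the other 4 lines. The change of CD86 was 1.47 in KG-1, 0.99 in MOLM-13, 2.39 in MOLM-14 and 1.11 in SKM-1, so that it was positive in every line and greatest in OCI-AML3 (1.73, SE 0.25, limma, BH-adjusted p = 0.000215). LYZ changed by 1.13 in KG-1, 1.06 in MOLM-13, 1.15 in MOLM-14 and -0.06 in SKM-1 (0.78, SE 0.11, limma, BH-adjusted p = 0.000106). CHI3L1 changed by 0.82 in KG-1, 1.19 in MOLM-13, 2.46 in MOLM-14 and -0.42 in SKM-1 (2.91, SE 0.19, limma, BH-adjusted p = 1.11e-09). Over the lists, differences of both signs were called. Of 28 tested monocyte and macrophage markers CD86 and LYZ changed more positively than the mean of the other lines and CD93 (-1.83, SE 0.18, limma, BH-adjusted p = 1.52e-06) and FCGR2A (-1.03, SE 0.15, limma, BH-adjusted p = 0.00029) more negatively. Of 15 tested granulocyte markers none changed more positively and 2, EPX (-2.91, SE 0.54, limma, BH-adjusted p = 0.00319) and PRG2 (-2.49, SE 0.44, limma, BH-adjusted p = 0.00189), more negatively. Of 34 tested cancer-testis and germline genes 4 changed more positively and 5 more negatively.

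FLT3 rose in OCI-AML3 and had negative differences elsewhere, with -0.06 in KG-1, -0.47 in MOLM-13, -0.24 in MOLM-14 and -0.55 in SKM-1 (0.92, SE 0.09, limma, BH-adjusted p = 1.52e-06). MYC changed by -0.39 in KG-1, -0.49 in MOLM-13, -1.23 in MOLM-14 and -1.32 in SKM-1, against -0.29 in OCI-AML3 (0.57, SE 0.12, limma, BH-adjusted p = 0.00698). HOXA7 changed by 0.41 in KG-1, -0.46 in MOLM-13, 0.34 in MOLM-14 and 0.09 in SKM-1 (-1.27, SE 0.20, limma, BH-adjusted p = 0.000416), and CGAS by 0.21 in KG-1, -0.19 in MOLM-13, -0.06 in MOLM-14 and 0.11 in SKM-1 (-0.57, SE 0.14, limma, BH-adjusted p = 0.0298), while both fell in OCI-AML3. TNF changed by 2.07 in KG-1, 0.75 in MOLM-13, 0.46 in MOLM-14 and 4.22 in SKM-1 (-2.12, SE 0.41, limma, BH-adjusted p = 0.00419), and IRF7 by 1.23 in KG-1, 0.24 in MOLM-13, 0.69 in MOLM-14 and 1.90 in SKM-1 (-1.03, SE 0.23, limma, BH-adjusted p = 0.0137), while neither was called in OCI-AML3. Of the 36 interferon-stimulated genes 6 changed less positively in OCI-AML3 than in the mean of the other lines and none more positively. The list medians were 0.04 in KG-1, 0.12 in MOLM-13, 0.60 in MOLM-14 and 0.55 in SKM-1. ZNF595 rose in OCI-AML3 by 1.72, and elsewhere by 1.00 in KG-1, 4.29 in MOLM-13, 3.45 in MOLM-14 and 8.45 in SKM-1 (-2.58, SE 0.40, limma, BH-adjusted p = 0.000416).

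**Figure D4:**
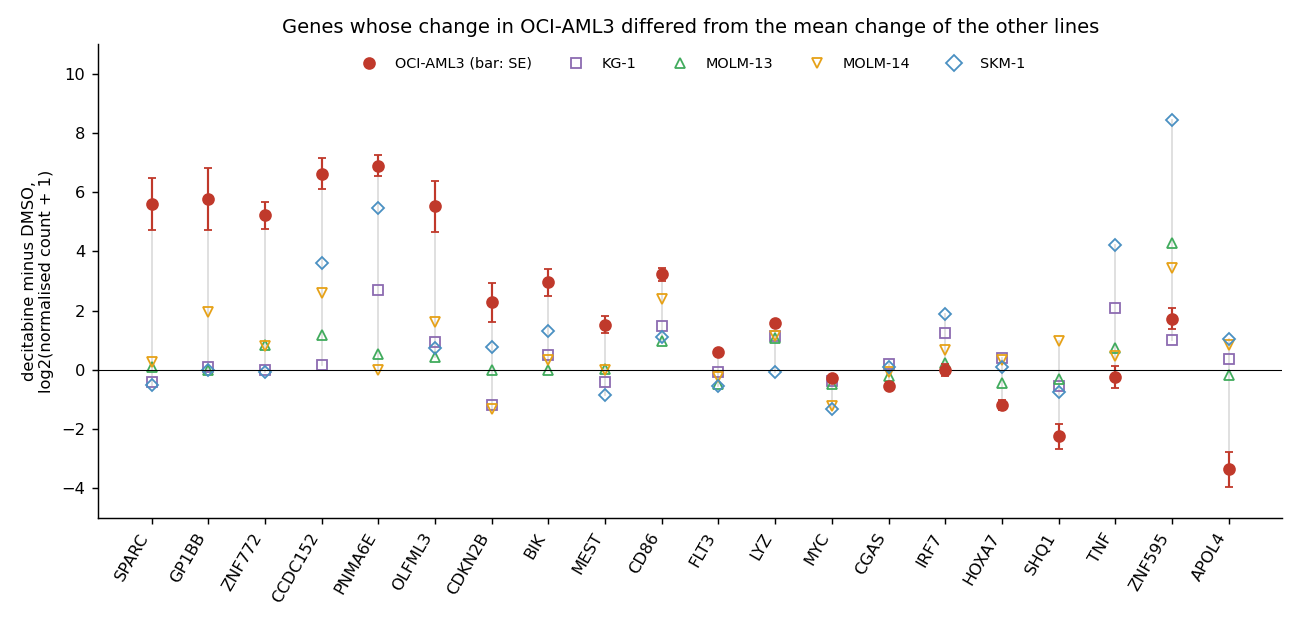
Difference between decitabine and DMSO in each of 5 lines, on the log2(normalised count + 1) scale, for 20 genes in which OCI-AML3 (filled circles with SE) differed from the mean of the other lines (open symbols). SPARC and ZNF772 lie above 5 in OCI-AML3 and below 1 in the other lines, while ZNF595 lies at 1.72 against 8.45 in SKM-1.

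Genes of amino acid supply also had negative differences in other lines. ATF4 changed by -0.05 in KG-1, -0.15 in MOLM-13, -0.87 in MOLM-14 and -0.82 in SKM-1 (-0.29, SE 0.09, limma, BH-adjusted p = 0.0996), and SLC7A5 by -0.22 in KG-1, -0.68 in MOLM-13, -2.20 in MOLM-14 and -1.43 in SKM-1 (0.07, SE 0.20, limma, BH-adjusted p = 0.903). None of the genes of the integrated stress response list was called more negative in OCI-AML3 than in the other lines, and 1 was called more positive, CEBPG (0.40, SE 0.08, limma, BH-adjusted p = 0.00479), which encodes a partner of ATF4. The medians of that list were -0.51 in OCI-AML3, 0.14 in KG-1, -0.20 in MOLM-13, -1.50 in MOLM-14 and -0.50 in SKM-1, and those of the synthetases -0.31, -0.05, -0.29, -0.65 and -0.53 in the same order. MOLM-14 had the lowest median of both lists, and KG-1 had the highest.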

How the data were processed

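RNA was sequenced from decitabine and DMSO libraries of AML lines. Per the submitters' processing notes, build hg38 was used and the tools named are DESeq2, featureCounts, limma, STAR and Salmon 1.2.1. The annotation release and the strand setting are not given in the sources used here. The deposited signal is the authors' estimated count per gene after DESeq2 normalisation. Only 58.8% to 71.3% of the low values in the OCI-AML3 libraries were whole multiples of 1 read within 0.02 reads, so no count model was used, and depth was estimated from that step. Columns were matched to samples by name, 12 columns matched no labelled sample and were not used, and 12 labelled samples were not analysed here. Genes matched to GENCODE 29 gave positions.

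Values were analysed as log2(value + 1) with limma 3.58.1 (R 4.3.3), with a trended and robust spread over 30 libraries and 10 group means (20 residual degrees of freedom), for genes of at least 10 in at least 3 libraries. P-values were BH-adjusted over all genes tested. The fit was tested on simulated data. Alternatives were the pseudocount, the filter, quantile scaling, library weights, a replicate block, other sets of libraries and each library left out. The 3-line fits (OCI-AML3 with KG-1 and MOLM-14) were chosen after seeing the data. The members and lists were chosen with earlier results of these data known. Lists not described in the report were immune checkpoints (1 of 15 tested genes higher, CD86), haematopoietic progenitors (1 of 13, FLT3) and megakaryocytes (1 of 9, NFE2).

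Named genes were called genes of at least 30 normalised counts in the higher arm without overlap, namely the 15 largest rises and falls and the 8 largest differences from the other lines in each direction, up to 3 members of each list, and a preset group of AML and drug genes. Other members of the lists are named where a count is described. Some genes counted in the lists are not reported here by name.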

Additional observations from a re-analysis of the deposited data

Results flagged for a closer look

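The response of OCI-AML3 was tested against the mean response of KG-1, MOLM-13, MOLM-14 and SKM-1 in 1 limma model, and it differed (BH-adjusted p below 0.05) in 313 genes in the positive and 222 in the negative direction. All values below are that difference on the log2(value + 1) scale for named genes.

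Among germline and silent genes the difference was 1.728 for PNMA5, 4.718 for PNMA6E, 4.075 for MAGEA4, 2.779 for TDRD9 and 2.373 for PRAME. These are differences from a mean of 4 lines, and single lines exceeded OCI-AML3: PNMA5 rose by 7.14 in OCI-AML3, 7.70 in KG-1 and 8.66 in SKM-1, MAGEA4 by 6.65 in OCI-AML3 and 9.18 in SKM-1, and TDRD9 by 5.72 in OCI-AML3 and 5.75 in SKM-1. In the cancer-testis and germline list, 5 genes were more negative in OCI-AML3: TKTL1 (-4.34), TDRD1 (-2.40), GAGE2A (-2.28), CT45A1 (-1.77) and GAGE12J (-1.65). For other large rises it was 4.737 for CCDC152, 6.668 for SNORD3B-1, 5.253 for GP1BB, 5.748 for SPARC, 4.59 for OLFML3 and 4.821 for ZNF772. The value of SNORD3B-1 rests on DMSO libraries that ranged from 0 to 343 normalised counts.

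Markers of blood cells went both ways. The difference was 1.73 for CD86, 1.418 for CSF2RA, 0.9246 for FLT3, 0.981 for NFE2 and 0.7754 for LYZ, and it was -1.83 for CD93, -1.03 for FCGR2A, -2.91 for EPX and -2.49 for PRG2. The cell cycle and cell death genes CDKN2B (2.707), BIK (2.418) and BTG1 (0.7478) were more positive, as were MEST (1.832), the transporter gene SLC29A2 (2.215), ERAP2 (0.9177), the histone gene H3-3A (0.4574) and MYC (0.5655). In OCI-AML3 itself the calls of BIK and MEST were kept, and those of CDKN2B, BTG1, SLC29A2, ERAP2 and H3-3A were not. The values of BIK were low in both arms, with 1 read in decitabine replicate 2. MYC was lower after decitabine than after DMSO in OCI-AML3, and its difference there was smaller than in the other lines.

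The difference was negative for GTF2IP13 (-3.759), SLC6A16 (-4.689), APOL4 (-3.877), SHQ1 (-2.09), SLC12A7 (-2.164), the neuropeptide gene GAL (-1.813), the homeobox gene LHX1 (-2.127) and HOXA7 (-1.273). LHX1 changed by -2.21 in OCI-AML3, -0.33 in MOLM-13 and exactly 0 in KG-1, MOLM-14 and SKM-1. A gene listed at 0 in both arms of a line cannot fall there, and the level of LHX1 in those lines is not given here. ZNF595 (-2.577) rose in OCI-AML3 but by less than the mean of the other lines. The immune genes CGAS (-0.5675), IRF7 (-1.028) and TNF (-2.123) were also more negative in OCI-AML3.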

How the results depend on the processing

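Counts of genes were the part most open to the processing. In OCI-AML3, 828 higher and 363 lower genes became 501 and 139 with library weights, 531 and 171 without both shallow OCI-AML3 libraries, and 1399 and 765 without the 6 shallow libraries of 3 lines. They became 257 and 65 in the 3-line fit, 402 and 122 in that fit with library weights, and 50 and 4 from the OCI-AML3 libraries only. Quantile scaling gave 545 lower genes. Leaving out 1 library gave 592 to 900 higher and 233 to 591 lower genes, with 591 without decitabine replicate 3 and 233 without DMSO replicate 2.

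Against the other lines, 313 more positive and 222 more negative genes became 184 and 86 with library weights, 199 and 89 without the shallow pair, 716 and 649 without the 6 shallow libraries, 44 and 14 in the 3-line fit and 112 and 52 in that fit with weights. A pseudocount of 5 gave 382 more negative genes. Leaving out 1 library gave 218 to 490 and 127 to 404, with 490 and 404 without decitabine replicate 3. The more negative count was 127 without DMSO replicate 2 and 146 without decitabine replicate 2. The cause of these shifts was not tested.

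The main fit did not pair samples by replicate number, and a correlation over 0.1 was not reached in every same-numbered pair of OCI-AML3. That mark does not decide whether the samples were paired. Deviations of same-numbered OCI-AML3 libraries correlated at 0.07, 0.125 and 0.118 across genes, and each library correlated best with its own number. Same-numbered libraries correlated at 0.085 to 0.153 in KG-1 and MOLM-14, where replicate 2 was also shallow. In MOLM-13 and SKM-1, without a shallow replicate, they correlated at -0.022 to 0.041. Whether pairing or depth gave these values was not tested. With the replicate block 918 genes were higher and 482 lower, and 335 and 219 differed from the other lines. With the block in the OCI-AML3 libraries alone limma called 0 higher and 0 lower, with 1277 and 806 at an unadjusted p below 0.05 and 2 residual degrees of freedom.

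Of 136 named genes, 1 turned its direction: MPO was at 1.451 without both shallow OCI-AML3 libraries and without the 6 shallow libraries. The difference in mitochondrial share ran from 1.149 to 3.949 percentage points when 1 library was left out. In the shallow libraries a gene of few reads can be listed at 0 by counting alone, so that low values there carry little precision.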
